A study of Homo sapiens with 8 samples.

Results

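The clustered protocadherin genes were followed through directed differentiation of H1 cells toward pharyngeal foregut endoderm. They were taken as the protein-coding rows whose GENCODE 29 symbol begins with PCDHA, PCDHB, PCDHGA, PCDHGB, PCDHGC or PCDHAC and ends in a number. The rule found 53 genes of the 58780 that matched GENCODE 29: 15 in the alpha cluster, 16 in the beta cluster and 22 in the gamma cluster.

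H1 is an established human embryonic stem cell line. Strand-specific RNA-seq of total RNA depleted of ribosomal RNA was deposited for 4 stages with 2 libraries each: undifferentiated cells, labelled hESC; definitive endoderm, the first endoderm stage, labelled hDE; endoderm of the anterior foregut, labelled hAFE; and pharyngeal foregut endoderm, labelled hPFE. All libraries came from H1 cells with no genetic change named in the labels. The labels mark the hESC and hDE libraries as re-analysed and not the hAFE and hPFE libraries, so in hAFE against hDE and in hPFE against hESC the stage and this difference of origin cannot be told apart. Whether 2 libraries of a stage were grown as separate cultures is not in the labels, so p-values reflect only how far these libraries differ, and that spread may be technical.

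Clustered protocadherins are cadherin-family adhesion proteins best known from neurons, where combinations of them give single cells a surface identity and mediate self-recognition between branches of the same cell. Each alpha and gamma gene has its own variable exon, which encodes the extracellular and transmembrane parts and is spliced to a few constant exons shared by the whole cluster. Beta genes have no constant exons. Each variable exon has its own promoter, and promoter choice is known to involve CTCF, cohesin and DNA methylation. The C-type genes (PCDHAC1, PCDHAC2, PCDHGC3, PCDHGC4 and PCDHGC5) stand at the 3′ ends of the alpha and gamma clusters and are known to be regulated differently from the others.

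In hg38 all 53 genes lie on the plus strand of chromosome 5. The alpha genes span chr5:140786136-141012347 (226.2 kb), the beta genes chr5:141051135-141249365 (198.2 kb) and the gamma genes chr5:141330571-141512981 (182.4 kb). The constant coding exons bear on the alpha and gamma counts, because a read that falls wholly in them could come from any gene of its cluster. The first constant coding exon was annotated in 15 of 15 alpha genes (chr5:140978949-140979007) and in 22 of 22 gamma genes (chr5:141494807-141494865). Both are 59 bases long and hold the same base at 39 positions. They are shown from the hg38 reference, plus strand, 5′ to 3′, with the longest run of identical positions (10 bases) in capitals.
Alpha, first constant coding exon: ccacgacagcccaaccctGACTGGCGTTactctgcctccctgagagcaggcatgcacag
Gamma, first constant coding exon: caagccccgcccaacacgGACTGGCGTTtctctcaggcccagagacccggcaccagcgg

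Clustered protocadherin promoters are known for a conserved element with CGCT at its core. RefSeq promoter windows (GRCh38.p14, 250 bases before to 50 after the start site) matched 47 of the 53 genes by symbol, and PCDHA3, PCDHA13, PCDHB6, PCDHB11, PCDHGA12 and PCDHGC5 had no entry. Searched on both strands, CGCT was present in 97.9% of the 47 members and in 71.8% of the 27258 other genes with a window, so the core alone is common. A longer string that ends in CGCT was taken from the CTCF motif and not from the conserved element. It was present in 4.26% of members (2 of 14 beta genes and no alpha or gamma gene) and 2.89% of other genes. These shares do not measure how common the conserved element is. The following 3 strings, each of which contains CGCT, were chosen after the windows had been seen and are descriptions only. ATGTCGCT was present in 9 of 13 alpha genes, no beta or gamma gene and 0.249% of other genes. GTGGCGCT was present in 13 of 14 beta genes, no alpha or gamma gene and 1.34% of other genes. GCCGCTGT was present in 11 of 20 gamma genes, no alpha or beta gene and 1.95% of other genes.

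Stretches of 30 bases around these strings are shown for some of the genes called below that hold their cluster's string, plus strand, 5′ to 3′, with CGCT in capitals.
PCDHA2, chr5:140794783-140794812: tagccacatgatgtCGCTgtccaccataga
PCDHA4, chr5:140806981-140807010: gagccacatgatgtCGCTctttaccacaaa
PCDHA5, chr5:140821544-140821573: catccacatgatgtCGCTggacaccggaag
PCDHB2, chr5:141094546-141094575: gagacgcggggtggCGCTgcagccttagaa
PCDHB12, chr5:141208645-141208674: gagacgcgtggtggCGCTgcaggataatat
PCDHB15, chr5:141245316-141245345: acaacgcatggtggCGCTgcaggctaaggc
PCDHGA1, chr5:141330405-141330434: aggactgtgggcgcCGCTgttcactaatct
PCDHGB4, chr5:141387619-141387648: ctgactctgggcgcCGCTgttggccaaagt
PCDHGB6, chr5:141407926-141407955: gagcctctgggcgcCGCTgtcggccagtgc
PCDHGC3, chr5:141475882-141475911: gggactctgtgtgcCGCTgtcggccaatga
In these genes CGCT began between 55 bases (PCDHA2, PCDHA5 and PCDHB2) and 95 bases (PCDHGA1) before the RefSeq start site. The genes shown were taken from those that hold their cluster's string, so their direction of change says nothing about the string. PCDHA9, PCDHA11, PCDHGB2, PCDHGA6 and PCDHGB7, also called below, had a window without their cluster's string. No binding or methylation was measured in these files.

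The genes were lowly expressed at every stage. Levels are compared between genes in TPM, which allows for gene length. The highest member stood at 2.53 and 3.11 TPM in the hESC libraries, 1.76 and 1.60 in hDE, 5.16 and 7.34 in hAFE, and 6.61 and 10.48 in hPFE. The median of the 49 members that passed the count filter was between 0.12 TPM (both hDE libraries) and 0.82 TPM (hPFE replicate 2), against a median over all genes tested of 1.80 to 5.02 TPM. Between 2 members (hDE replicate 2) and 19 members (hPFE replicate 2) reached 1 TPM.

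**Figure D1:**
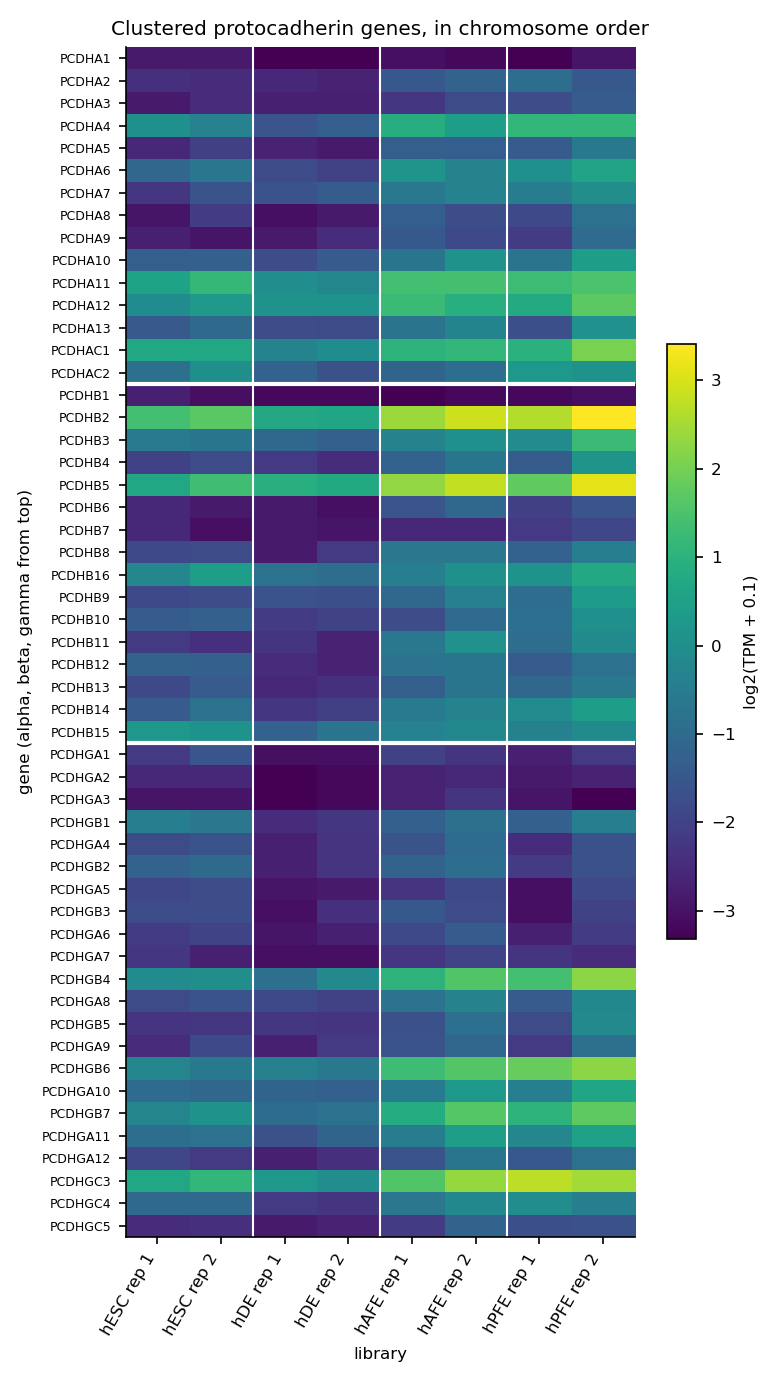
Deposited TPM of the 53 genes in chromosome order (rows) in each of the 8 libraries (columns), as log2(TPM + 0.1); white lines separate clusters and stages. The hDE columns are the darkest, and the brightest rows are PCDHB2, PCDHB5 and PCDHGC3, which reached 10.48, 8.58 and 6.61 TPM.

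The 3 leading genes held 50.1% to 61.3% of alpha TPM, 61.1% to 69.3% of beta TPM and 40.7% to 67.2% of gamma TPM, depending on the library. In gamma this was under 50% in 3 of 8 libraries (both hESC libraries and hDE replicate 2). By mean TPM over the 8 libraries the leaders were PCDHA11 (1.92), PCDHAC1 (1.82) and PCDHA12 (1.60) in alpha, PCDHB2 (4.72), PCDHB5 (3.85) and PCDHB16 (0.879) in beta, and PCDHGC3 (3.20), PCDHGB6 (1.98) and PCDHGB4 (1.88) in gamma. The first gene of the alpha and of the beta cluster, PCDHA1 and PCDHB1, and the gamma genes PCDHGA2 and PCDHGA3, did not pass the count filter. PCDHA1 held at most 3.92 expected counts in a library, PCDHB1 at most 15, PCDHGA2 at most 12 and PCDHGA3 at most 7.57, and these 4 genes were not tested.

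Of a gene's annotated exonic bases, 43.4% to 80.8% (median 53.5%) belonged to that gene alone in alpha and 35.6% to 72.4% (median 56.2%) in gamma, whereas each of the 16 beta genes had 100% of its own. The authors' tables give a posterior standard deviation for each expected count, which measures how uncertain the division of reads between genes was. Summed over the 8 libraries and divided by the count, it had a median of 0.119 in alpha (0.0422 to 1.06), 0.00807 in beta (0 to 0.0647) and 0.140 in gamma (0.0427 to 0.408). The highest values belonged to genes with few counts, 1.06 for PCDHA1 and 0.408 for PCDHGA3. PCDHGB4, with the lowest share of bases of its own (35.6%), had 0.0438, so within the gamma cluster a low share did not always go with a high uncertainty.

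**Figure D2:**
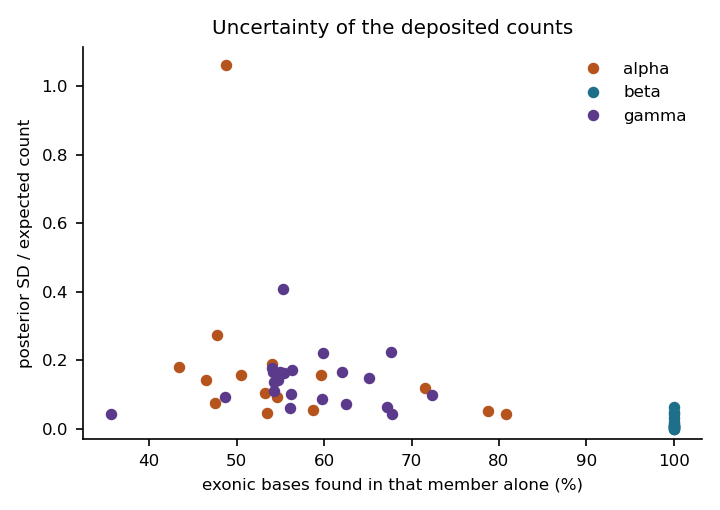
Posterior standard deviation divided by the expected count, both summed over 8 libraries (vertical axis), against the percentage of annotated exonic bases found in that gene alone (horizontal axis), 1 point per gene. Beta genes lie at 100% with values up to 0.0647, and alpha and gamma genes lie between 35.6% and 80.8% with values up to 1.06.

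Summed over each cluster, the genes were lowest in hDE and highest in hAFE and hPFE. Comparisons between stages use CPM, a count normalised for library size by edgeR's TMM method and not for gene length. For alpha the hESC sum was 81.3 ± 9.08 CPM, the hDE sum 63.1 ± 1.56, the hAFE sum 105.5 ± 4.31 and the hPFE sum 110.2 ± 10.5 (mean ± SD, n = 2 libraries). The beta sum was 73.6 ± 7.22, 56.4 ± 3.11, 111.4 ± 28.0 and 112.4 ± 23.6 CPM in the same order (SD, n = 2). The gamma sum was 65.1 ± 1.68, 54.8 ± 4.41, 118.0 ± 42.3 and 121.3 ± 0.566 CPM (SD, n = 2). In each cluster both hDE libraries lay below all hESC libraries, and all hAFE and hPFE libraries lay above all hESC libraries. The 2 hAFE libraries differed widely in the gamma sum, with 88.1 CPM in replicate 1 and 147.9 CPM in replicate 2.

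**Figure D3:**
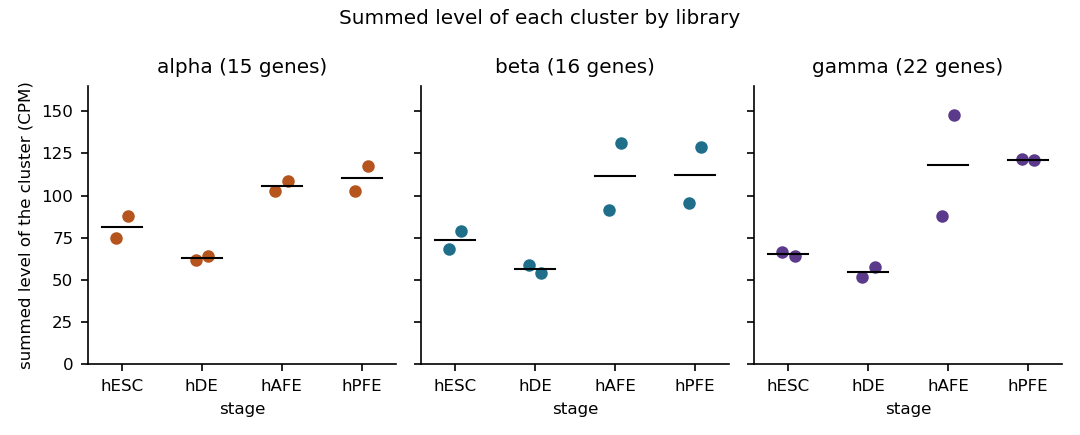
Summed level of each cluster in CPM (vertical axis) by stage (horizontal axis); points are libraries and lines are stage means. In all 3 panels the hDE points are the lowest, with means of 63.1, 56.4 and 54.8 CPM, and the hAFE and hPFE points lie above the hESC points.

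The size of these differences depended on the scale more than their order did. The mean summed CPM in hAFE was 1.67 times that in hDE for alpha, 1.98 times for beta and 2.15 times for gamma, and the corresponding ratios of summed TPM were 2.96, 3.51 and 4.11. The sums themselves were not tested. TPM moved for other genes as well: on log2(TPM + 0.1) the median of all 17446 genes tested was 0.79 higher in hAFE than in hDE and that of the members 1.28 higher. On log2(TPM + 1), where the added 1 compresses values this low, the member median was 0.37 higher and lay below that of all genes, 0.50. In bulk RNA, fewer expressing cells and less RNA per cell cannot be told apart.

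Single genes were tested with edgeR's quasi-likelihood test across all genes, with Benjamini-Hochberg adjustment and a threshold of 0.05. From hESC to hDE, 8 members fell and none rose among the 49 tested, in a comparison in which 41.9% of all genes tested were called (20.3% higher and 21.6% lower). The genes that fell were PCDHA4 and PCDHA11 in alpha, PCDHB12, PCDHB14 and PCDHB15 in beta, and PCDHGA1, PCDHGB1 and PCDHGB2 in gamma. The share of members called lower was thus not above that of all genes. The median log2 fold change of the members was -0.26, against -0.01 for all genes tested, and 14 of 49 had a value above 0.

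PCDHB12 had 2.64 and 2.43 CPM in the hESC libraries, 0.801 and 0.507 in hDE, 2.71 and 3.29 in hAFE, and 1.88 and 1.95 in hPFE. The hDE libraries were below all others, and from hESC to hDE it fell by 1.96 ± 0.39 on the log2 scale (SE; edgeR adjusted p = 0.00629). PCDHB14 had 3 and 4.30 CPM in hESC, 1.25 and 1.67 in hDE, 3.70 and 5.12 in hAFE, and 5.71 and 5.99 in hPFE. Its hDE libraries were again the lowest, and from hESC it fell by 1.31 ± 0.36 (edgeR adjusted p = 0.0206).

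PCDHA11 was the alpha gene of highest mean TPM over the 8 libraries, though not the highest in each. PCDHA12 led in both hDE libraries, and PCDHAC1 in hESC replicate 1 and hPFE replicate 2. PCDHA11 had 18.4 and 25.6 CPM in hESC and 12.4 and 12.5 in hDE, and fell by 0.82 ± 0.21 on the log2 scale (edgeR adjusted p = 0.0151). It returned to 22.7 and 22.4 CPM in hAFE and had 15.7 and 18.8 CPM in hPFE. PCDHA4 had 11.4 and 8.14 CPM in hESC, 4.36 and 5.21 in hDE, 16.5 and 12.9 in hAFE, and 19.2 and 15 in hPFE. It fell to hDE by 1.03 ± 0.27 (edgeR adjusted p = 0.0188), and its hAFE and hPFE libraries were all above its hESC libraries.

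In the gamma cluster PCDHGA1 had 1.02 and 2.15 CPM in hESC and 0.267 and 0.217 in hDE, the latter from 3.09 and 3 expected counts. It fell by 2.68 ± 0.64 on the log2 scale (edgeR adjusted p = 0.0126), but its hDE value rests on a handful of reads and DESeq2 gave an adjusted p of 0.0510. It had 1.06 and 0.658 CPM in hAFE and 0.364 and 0.577 in hPFE. PCDHGB1 had 3.72 and 3.45 CPM in hESC, 1.16 and 0.869 in hDE, 1.26 and 2.71 in hAFE, and 1.34 and 2.52 in hPFE, and fell to hDE by 1.82 ± 0.51 (edgeR adjusted p = 0.0233).

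Fewer members, and fewer genes of all kinds, were called in hDE against hESC when a library of either stage was left out. Without hESC replicate 1 it was 4 of 49 (PCDHA11, PCDHB12, PCDHB14 and PCDHGA1). Without hESC replicate 2 it was 3 of 50 (PCDHA4 and PCDHB12 lower, PCDHA12 higher by 1.28). Without hDE replicate 1 it was 1 of 51 (PCDHB12), and without hDE replicate 2 it was 0 of 50. Over all genes the calls in these 4 fits, in the same order, were 3987 of 18257, 3695 of 18336, 3757 of 18743 and 3936 of 18310, against 7304 of 17446 with all libraries. Without an hAFE or hPFE library 9 to 11 members were called. With all libraries DESeq2 called 6 of these 8 genes, leaving out PCDHGA1 and PCDHGB2.

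From hDE to hAFE, 17 of the 49 members rose and none fell, where 30.2% of all genes tested were called, 15% higher and 15.2% lower. The 17 were PCDHA4, PCDHA5, PCDHA6 and PCDHA11 in alpha, PCDHB2, PCDHB6, PCDHB8, PCDHB11, PCDHB12, PCDHB13 and PCDHB14 in beta, and PCDHGB2, PCDHGA6, PCDHGB4, PCDHGB6, PCDHGB7 and PCDHGC4 in gamma. The fold change was above 0 for 48 of 49 members, PCDHAC2 being the exception at -0.31 ± 0.39, and for 8822 of all 17446 genes. The median log2 fold change was 1.05 over the members (0.87 in alpha, 1.20 in beta and 1.09 in gamma), against 0.01 over all genes tested. The exception to this order was log2(TPM + 1), given above.

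PCDHB11 had 1.08 and 0.791 CPM in hESC, 0.890 and 0.797 in hDE, 3.70 and 6.73 in hAFE, and 2.91 and 3.54 in hPFE. All libraries of the 2 later stages were above all libraries of the 2 earlier ones. It rose from hDE to hAFE by 2.62 ± 0.44 on the log2 scale (edgeR adjusted p = 0.00377), the largest rise of a member in this comparison, and was called in 19 of 19 alternative fits. PCDHB6 had 0.360 and 0.283 CPM in hESC, 0.356 and 0.217 in hDE, 1.19 and 2.05 in hAFE, and 0.729 and 0.866 in hPFE. It rose to hAFE by 2.48 ± 0.56 (edgeR adjusted p = 0.0137), from 4 and 3 expected counts in the hDE libraries, and DESeq2 did not call it.

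Among alpha genes PCDHA4 rose from hDE to hAFE by 1.61 ± 0.27 (edgeR adjusted p = 0.00397) and was called in 19 of 19 alternative fits. PCDHA5 had 0.661 and 1.19 CPM in hESC, 0.801 and 0.507 in hDE, 2.25 and 2.49 in hAFE, and 2.12 and 2.96 in hPFE. Its later libraries lay above all earlier ones, and it rose to hAFE by 1.86 ± 0.48 (edgeR adjusted p = 0.0228).

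Among gamma genes PCDHGB2 had 2.46 and 2.77 CPM in hESC, 0.801 and 0.869 in hDE, 2.51 and 2.78 in hAFE, and 0.729 and 1.15 in hPFE. Both hESC and both hAFE libraries were above all hDE and hPFE libraries, and it rose to hAFE by 1.65 ± 0.40 (edgeR adjusted p = 0.0172). PCDHGA6 had 1.68 and 1.81 CPM in hESC, 0.534 and 0.797 in hDE, 1.59 and 2.78 in hAFE, and 0.425 and 0.866 in hPFE, the same order of stages. It rose to hAFE by 1.68 ± 0.52 (edgeR adjusted p = 0.0445). DESeq2 called neither PCDHGB2 nor PCDHGA6 in this comparison.

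Leaving out 1 library gave 4 to 22 called members. Without hDE replicate 1 these were 6 of 51 (PCDHA4, PCDHA6, PCDHB2, PCDHB11, PCDHB12 and PCDHGB6), and without hDE replicate 2 they were 4 of 50 (PCDHA4, PCDHB8, PCDHB11 and PCDHGB4). Without hAFE replicate 2 they were 8 of 51 (PCDHA4, PCDHA6, PCDHA11, PCDHB2, PCDHB11, PCDHB12, PCDHGB6 and PCDHGB7). Without hAFE replicate 1 the count was again 17, with PCDHA5, PCDHA11 and PCDHB8 not among them. The member median stayed between 0.66 and 1.32 in these 4 fits. Over all genes the calls were 2470 of 18743 without hDE replicate 1, 2435 of 18310 without hDE replicate 2, 4314 of 18626 without hAFE replicate 2 and 4042 of 18680 without hAFE replicate 1, against 5267 of 17446 with all libraries. Without either hESC library 13 were called, and PCDHB8, PCDHGA6, PCDHGB4 and PCDHGC4 were the calls lost (all genes: 4000 of 18257 and 4002 of 18336). Without either hPFE library 22 members were called (all genes: 6363 of 18155 and 6344 of 18646).

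**Figure D4:**
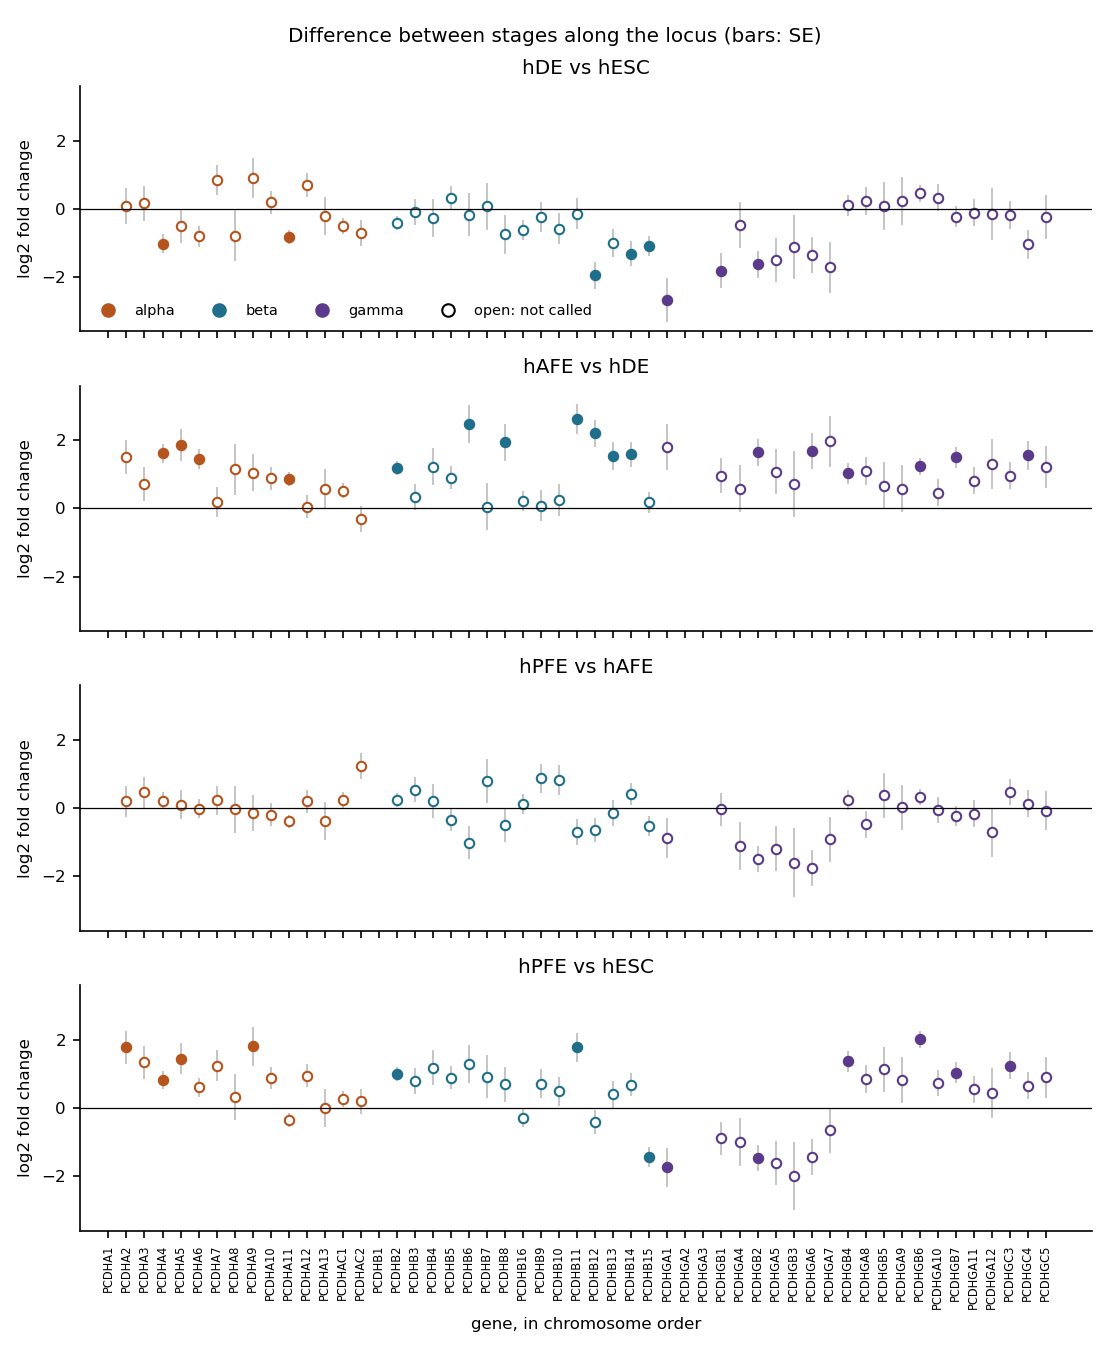
log2 fold change (vertical axis) of the 49 genes tested, in chromosome order (horizontal axis), in 4 comparisons; bars are SE, filled points passed an adjusted p of 0.05 and gaps are the 4 genes not tested. In hAFE against hDE 48 of 49 points are above 0, and in hPFE against hESC the gamma points change side between PCDHGA7 and PCDHGB4.

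From hAFE to hPFE no member of the 49 was called, where 7.49% of all genes tested were called (4.77% higher and 2.71% lower). At an unadjusted p under 0.05 there were 3 members, PCDHAC2 (1.22 ± 0.38, edgeR adjusted p = 0.0928), PCDHGB2 (-1.49 ± 0.39, edgeR adjusted p = 0.0578) and PCDHGA6 (-1.76 ± 0.52, edgeR adjusted p = 0.0803), and DESeq2 called 0 members. Over all genes tested 4608 of 17446 had an unadjusted p under 0.05. Without a count filter PCDHAC2 and PCDHGA6 were called, and without hPFE replicate 2 PCDHAC2 was called.

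From hESC to hPFE, the ends of the series, 10 members rose and 3 fell among 49 tested, where 45.0% of all genes tested were called, 21.6% higher and 23.3% lower. The genes that rose were PCDHA2, PCDHA4, PCDHA5 and PCDHA9 in alpha, PCDHB2 and PCDHB11 in beta, and PCDHGB4, PCDHGB6, PCDHGB7 and PCDHGC3 in gamma. Those that fell were PCDHB15, PCDHGA1 and PCDHGB2. The share called higher was close to that of all genes, while the median log2 fold change was 0.70 over the members and 0.02 over all genes tested. On log2(TPM + 1) the split was 16 higher and 0 lower, with a member median of 0.32 and an all-gene median of 0.36, and with DESeq2 it was 7 higher and 1 lower.

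PCDHGB6 had 7.33 and 5.26 CPM in hESC, 9.61 and 7.68 in hDE, 17.7 and 23.0 in hAFE, and 26.8 and 24.1 in hPFE. Both libraries of each stage were above both libraries of the stage before. It rose from hESC to hPFE by 2.02 ± 0.25 on the log2 scale (edgeR adjusted p = 0.000822), the smallest adjusted p of any member in any comparison, and was called in 19 of 19 alternative fits.

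PCDHGB4, which shares exonic bases with its neighbour PCDHGA8 outside the constant exons too, had 8.65 and 8.54 CPM in hESC, 6.76 and 11.5 in hDE, 14.5 and 23.0 in hAFE, and 19.8 and 24.5 in hPFE. It rose from hESC by 1.36 ± 0.31 (edgeR adjusted p = 0.0102). PCDHB2, the member of highest mean TPM over the 8 libraries, had 19.3 and 23.8 CPM in hESC, 17.0 and 15.1 in hDE, 30.8 and 42.9 in hAFE, and 40.4 and 46.1 in hPFE. It rose by 1.20 ± 0.21 from hDE to hAFE (edgeR adjusted p = 0.00441) and by 1.00 ± 0.20 from hESC to hPFE (edgeR adjusted p = 0.00604). PCDHB11 rose from hESC to hPFE by 1.78 ± 0.42 (edgeR adjusted p = 0.0113).

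PCDHA9 had 0.781 and 0.509 CPM in hESC, 0.801 and 1.59 in hDE, 2.91 and 2.12 in hAFE, and 1.40 and 3.17 in hPFE. It rose from hESC to hPFE by 1.81 ± 0.57 (edgeR adjusted p = 0.0346), and DESeq2 gave an adjusted p of 0.0712. PCDHA2 had 0.841 and 0.678 CPM in hESC, 0.801 and 0.797 in hDE, 2.25 and 2.34 in hAFE, and 3.64 and 1.59 in hPFE. It rose by 1.78 ± 0.48 (edgeR adjusted p = 0.0194), with all 4 later libraries above all 4 earlier ones.

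PCDHB15 went the other way from most beta genes. It had 8.95 and 7.91 CPM in hESC, 4.09 and 3.77 in hDE, 4.49 and 4.39 in hAFE, and 2.43 and 3.75 in hPFE. Its hESC libraries were above all others, and from hESC to hPFE it fell by 1.45 ± 0.30 on the log2 scale (edgeR adjusted p = 0.00667). On log2(TPM + 1) and log2(TPM + 0.1) this fall was not called.

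PCDHB5 and PCDHB16 were among the leading beta genes and were called in no comparison. PCDHB5 had 11.0 and 16.8 CPM in hESC, 18.6 and 16.2 in hDE, 26.5 and 38.5 in hAFE, and 18.6 and 32.9 in hPFE, and DESeq2 called it higher in hAFE than in hDE and in hPFE than in hESC. PCDHB16 had 8.41 and 9.04 CPM in hESC, 5.07 and 6.23 in hDE, 5.22 and 7.97 in hAFE, and 6.19 and 8.15 in hPFE. PCDHA12 was called in no comparison either, with 4.68 and 9.33 CPM in hESC, 12 and 10.7 in hDE, 12.8 and 10.8 in hAFE, and 11.2 and 15.8 in hPFE.

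These counts also moved when a library was left out. Without hESC replicate 1, 3 members were called (PCDHB11, PCDHB15 and PCDHGB6), and without hESC replicate 2 there were 4 (PCDHA12, PCDHB2, PCDHB15 and PCDHGB6). Over all genes the calls in these fits were 4444 of 18257 and 3822 of 18336, against 7842 of 17446 with all libraries. Without hDE replicate 1, which is not in the comparison but adds to the estimate of spread, 8 were called, 6 higher and 2 lower (all genes: 6739 of 18743). Without hPFE replicate 2, 12 were called, 7 higher and 5 lower (all genes: 6926 of 18646), and PCDHA5, PCDHA9, PCDHGA1 and PCDHGB7 were not among them. PCDHGB6 and PCDHB15 were called in each of these 4 fits.

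Along the gamma cluster the difference between hPFE and hESC changed sign at 1 place. This was seen in the values and then described, so no test is given. The 10 genes from PCDHGA1 to PCDHGA7 lie upstream of PCDHGB4. Of these, 8 were tested, and all 8 had a value below 0 in hPFE against hESC, with a median of -1.46 and a range of -2.01 to -0.67. PCDHGA1 and PCDHGB2 were the 2 called. PCDHGB2 fell by 1.48 ± 0.38 (edgeR adjusted p = 0.0166, DESeq2 adjusted p = 0.0887) and PCDHGA1 by 1.75 ± 0.57 (edgeR adjusted p = 0.0378), the latter called in 7 of 19 alternative fits.

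The 12 genes from PCDHGB4 to PCDHGC5 all had a value above 0 in hPFE against hESC, with a median of 0.87 and a range of 0.44 to 2.02, and 4 of them rose. Over all genes tested 8832 of 17446 were above 0 and 21.6% were called higher in this comparison. The upstream genes held 25.6% and 24.5% of gamma TPM in the hESC libraries, 7.37% and 12% in hDE, 13.1% and 11.1% in hAFE, and 4.48% and 6.95% in hPFE. The hESC shares were above all others and the hPFE shares below all others.

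In CPM the upstream genes summed to 15.5 and 16 in hESC, 4.36 and 6.37 in hDE, 10.6 and 16.2 in hAFE, and 4.43 and 8.44 in hPFE. The downstream genes summed to 50.8 and 47.9 in hESC, 47.3 and 51.5 in hDE, 77.5 and 131.8 in hAFE, and 117.3 and 112.4 in hPFE. The downstream libraries of hESC and hDE overlapped, while both upstream hDE sums were below both hESC sums. From hDE to hAFE all 8 tested upstream genes and all 12 downstream genes had values above 0, with medians of 1.36 and 1.06. Summed posterior SD divided by summed count was 11.1% to 28.9% upstream and 5.17% to 10% downstream, so the upstream counts are the less certain.

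The C-type genes did not share 1 pattern. PCDHGC3, the most abundant gamma gene, had 10.2 and 12 CPM in hESC, 10.2 and 9.27 in hDE, 12.8 and 25.1 in hAFE, and 34.6 and 17.6 in hPFE. It rose from hESC to hPFE by 1.24 ± 0.39 (edgeR adjusted p = 0.0352), and without hPFE replicate 1 the difference was 0.66 with an edgeR adjusted p of 0.196. The call was also lost without either hESC library and without either hDE library. PCDHGC4 had 3.06 and 2.37 CPM in hESC, 1.33 and 1.30 in hDE, 3.44 and 4.39 in hAFE, and 5.65 and 2.89 in hPFE, and it rose from hDE to hAFE by 1.56 ± 0.42 (edgeR adjusted p = 0.0277). PCDHGC5 was low, with 0.480 and 0.904 CPM in hESC, 0.356 and 0.797 in hDE, 0.991 and 1.75 in hAFE, and 1.64 and 0.938 in hPFE, and was called in no comparison.

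PCDHAC1 had 16.6 and 15.4 CPM in hESC, 10.7 and 11.9 in hDE, 15.2 and 17.3 in hAFE, and 15.5 and 22.9 in hPFE, and was called in no comparison. PCDHAC2 had 6.01 and 7.75 CPM in hESC, 4.72 and 3.62 in hDE, 2.77 and 3.95 in hAFE, and 10.2 and 5.48 in hPFE, and was called in no comparison. Both its hPFE libraries were above both its hAFE libraries, with replicate 1 the higher.

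**Figure D5:**
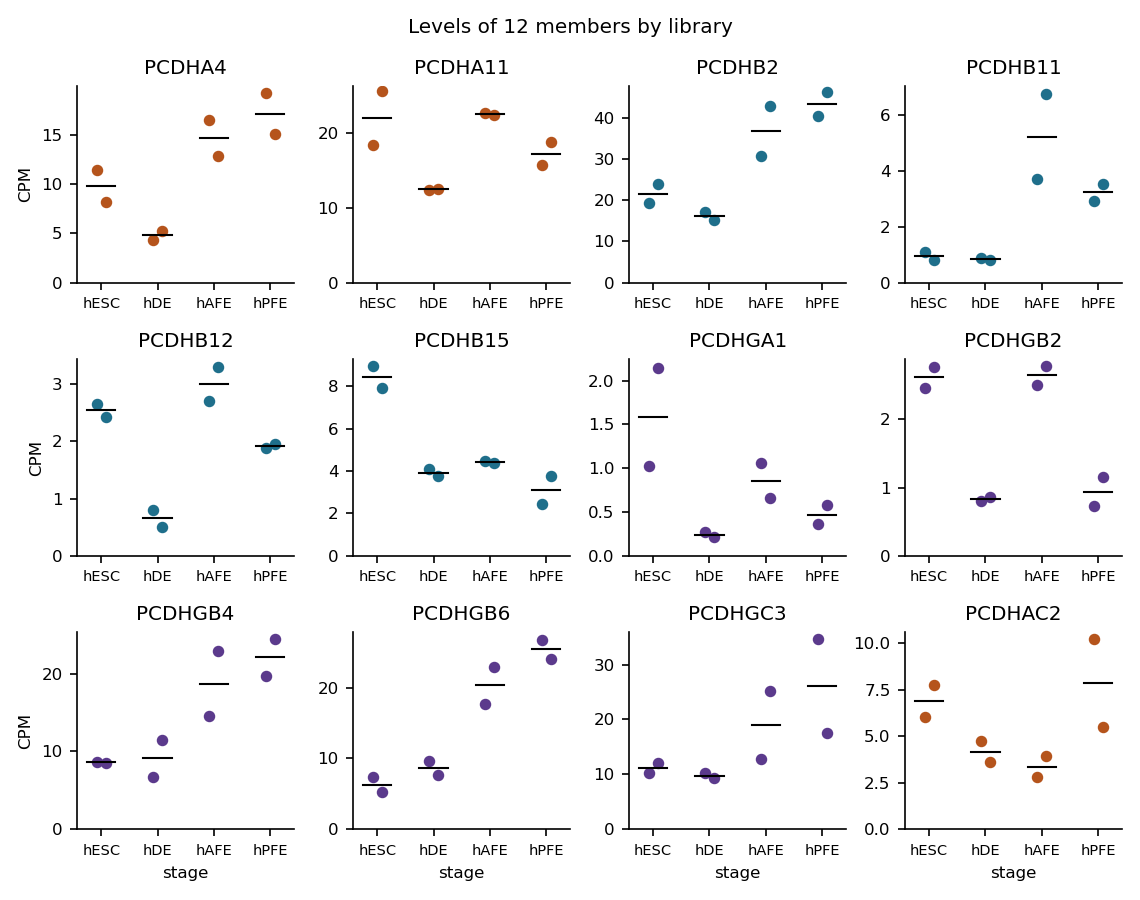
CPM (vertical axis, from 0, scaled separately for each gene) by stage (horizontal axis) for 12 genes; points are libraries, lines are stage means, and colours mark the cluster as in the other plots. PCDHGB6 is at 26.8 and 24.1 CPM in hPFE against 7.33 and 5.26 in hESC, PCDHB15 is highest in hESC, and PCDHGB2 is high in hESC and hAFE and low in hDE and hPFE.

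Markers of other cell types were also measured. Of the 16 neural markers, NEUROD1 was at 0 CPM and NEUROG2 at most 0.0890 CPM in every library, whereas other markers were well above this. In hPFE, NES had 187.5 and 70.3 CPM, TUBB3 95.0 and 117.8, and MAP2 167.3 and 107.0. Of the 12 markers tested, only MAP2 was higher in hPFE than in hESC, while SYP and RBFOX3 were lower. The summed neural list ran from 262 to 290 CPM in hESC, 352 to 399 in hDE, 424 to 550 in hAFE, and 341 to 492 in hPFE. NES and TUBB3 made up most of this sum in hESC and hDE. NES had 133.2 and 141.4 CPM in hESC and 186.0 and 205.3 in hDE, and TUBB3 67.6 and 86.9, and 140.9 and 155.0. The neural crest list summed to 121.2 and 126.3 CPM in hESC and 36.1 and 46.9 in hDE. It summed to 97.5 and 101.5 CPM in hAFE and 102.6 and 125.3 in hPFE. The sum was lowest in hDE, as the cluster sums and the mesenchyme sum were. ERBB3 was its largest part in every library, with 60.5 and 60.8 CPM in hESC and 27.95 and 34.3 in hDE. It had 83.9 and 91.5 CPM in hAFE and 82.1 and 95.1 in hPFE. SOX10 went the other way from the sum, with 5.96 and 9.99 CPM in hDE and at most 0.901 CPM elsewhere. Among the markers of this list, TFAP2A, SNAI2, SOX9 and ERBB3 were higher in hPFE than in hESC and SOX10 and FOXD3 were lower. SOX10, FOXD3 and TFAP2B were at 0 in both hPFE libraries. The part of this list in the cluster sums was not tested.

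As a sum the 10 mesenchyme markers were highest in hPFE, but not every marker was. PDGFRA had 28.4 CPM in hAFE replicate 1 against 7.10 and 4.91 in hPFE. COL1A2 had 65.8 CPM in hPFE replicate 2, below its 71.7 and 74.7 in hESC. The 10 markers summed to 95.0 and 100.1 CPM in hESC, 27.9 and 24.3 in hDE, 43.1 and 35.2 in hAFE, and 1533 and 269 in hPFE. Of 7 tested, 5 were higher in hPFE than in hAFE. COL3A1, a fibrillar collagen, made up 1232 CPM of the sum in hPFE replicate 1 and 29.7 CPM in replicate 2. No mesenchyme marker was at 0 in both hPFE libraries. LUM, unlike the other mesenchyme markers, was lower in hPFE replicate 1 (11.4 CPM) than in replicate 2 (87.45 CPM). Of the C-type genes, PCDHGC3, PCDHGC4, PCDHGC5 and PCDHAC2 were higher in hPFE replicate 1 than in replicate 2, and PCDHAC1 was lower. Members outside the C-type genes, such as PCDHA2, PCDHA4 and PCDHGB6, were higher in replicate 1 as well. The sum over all 53 members went the other way, with 320.2 CPM in replicate 1 and 367.5 CPM in replicate 2. The part of the mesenchyme markers in these differences was not tested. Without hPFE replicate 1, hPFE against hESC called 15 members, 14 higher and 1 lower (all genes: 7632 of 18155); PCDHA2, PCDHA4, PCDHGA1, PCDHGB2 and PCDHGC3 were no longer called. In the same fit hPFE against hAFE called 0.

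The stage markers followed the labels in part. POU5F1, a pluripotency factor, had 858 and 942 CPM in hESC and at most 25.8 CPM elsewhere. SOX17, an endoderm factor, had 126.5 and 148.5 CPM in hDE and at most 0.433 CPM elsewhere. PAX9, a pharyngeal pouch factor, was highest in hPFE with 95.7 and 28.6 CPM, while TBX1, another pharyngeal factor, had 1.21 and 1.95 CPM there and 5.996 CPM in hAFE replicate 2. Library totals ran from 12687161 to 17802900 expected counts, so that 3 counts correspond to 0.170 to 0.267 CPM. Of 53 members, between 30 (hDE replicate 1) and 47 had 10 expected counts or more in a library.

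Of 27 promoter choice and chromatin regulators, 27 of them tested, 6 rose and 9 fell from hESC to hDE, 10 rose and 2 fell from hDE to hAFE, none rose and 4 fell from hAFE to hPFE, and 7 rose and 9 fell from hESC to hPFE. Over all genes tested the shares called higher and lower were 20.3% and 21.6%, 15% and 15.2%, 4.77% and 2.71%, and 21.6% and 23.3% in these 4 comparisons, and the counts for this and the next 2 lists are to be read against them. DNMT3B, a de novo DNA methyltransferase, had 817 and 1084 CPM in hESC, 188 and 181 in hDE, 40.6 and 22.9 in hAFE, and 18.2 and 14.9 in hPFE. From hESC to hPFE it fell by 5.84 ± 0.33 on the log2 scale (edgeR adjusted p = 4.37e-05). TET2, which oxidises methylated cytosine, had 13.7 and 13.1 CPM in hESC, 48.9 and 44.5 in hDE, 107 and 83.0 in hAFE, and 115 and 139 in hPFE, and rose by 3.24 ± 0.18 (edgeR adjusted p = 4.37e-05). CTCF lay between 66.6 and 106.4 CPM and was called in no comparison.

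Of 20 cytoplasmic partners and processing enzymes, 20 of them tested, 6 rose and 3 fell from hESC to hDE, 3 rose and 5 fell from hDE to hAFE, 2 rose and none fell from hAFE to hPFE, and 6 rose and 2 fell from hESC to hPFE. WASF1, a subunit of the WAVE complex that acts on actin, had 27.4 and 28.2 CPM in hESC, 28.6 and 30.5 in hDE, 57.6 and 33.9 in hAFE, and 64.6 and 54.7 in hPFE. It rose from hESC to hPFE by 1.10 ± 0.24 (edgeR adjusted p = 0.00768). RET, a receptor tyrosine kinase, had 6.67 and 5.99 CPM in hESC, 6.68 and 8.69 in hDE, 1.19 and 0.658 in hAFE, and 0.243 and 0 in hPFE, and fell by 5.52 ± 0.73 (edgeR adjusted p = 0.00107).

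Of 12 protocadherins outside the clusters, 10 were tested: 3 rose and 2 fell from hESC to hDE, 5 rose and 2 fell from hDE to hAFE, none was called from hAFE to hPFE, and 5 rose and 2 fell from hESC to hPFE. PCDH7 had 6.79 and 7.80 CPM in hESC, 152.9 and 192 in hDE, 471 and 355 in hAFE, and 279.7 and 282 in hPFE, a rise from hESC to hPFE of 5.27 ± 0.22 on the log2 scale (edgeR adjusted p = 1.37e-05). PCDH1 had 139 and 147 CPM in hESC, 71.2 and 78.2 in hDE, 8.19 and 20.6 in hAFE, and 20.0 and 15.8 in hPFE, and fell by 3.0 ± 0.37 (edgeR adjusted p = 0.000828).

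Genes between and within the clusters that are not members gave a measure of the surrounding region. Of 31 such annotated genes, 6 passed the count filter. TAF7, a subunit of the general transcription factor TFIID that lies between the beta and gamma clusters on the minus strand, had 85.9 to 111 CPM in all 8 libraries and was called in no comparison. The gamma pseudogene PCDHGB9P had 0.356 and 0.579 CPM in hDE and 1.39 and 2.34 in hAFE, a rise of 1.95 on the log2 scale (edgeR adjusted p = 0.0267). The long non-coding RNA AC005618.1, which ends before PCDHGA1 begins, had 2.40 and 2.83 CPM in hESC and 0.267 and 1.01 in hDE, and fell by 1.98 (edgeR adjusted p = 0.0418). Its value of 0.267 CPM in hDE replicate 1 corresponds to 3 counts. The long non-coding RNA AC244517.1, within the beta cluster, had 0.781 and 0.791 CPM in hESC and 2.25 and 3.54 in hPFE, and rose by 1.86 (edgeR adjusted p = 0.0178). The pseudogenes PCDHGB8P and PCDHB17P were called in no comparison.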

How the data were processed

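RNA-seq libraries of H1 cells at 4 stages were depleted of ribosomal RNA and strand-specific, per the labels' protocols. Each library has 1 gene table in the form RSEM writes. The submitters' processing notes name RSEM, DESeq2 and hg38; versions and the aligner are not given in the sources used here. Per the file headers, each table holds an expected count, an estimate that divides shared reads between genes, together with TPM, which allows for effective length, the effective length itself and the posterior standard deviation of the count, all as deposited by the authors. Identifiers of 58780 rows matched GENCODE 29.

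Expected counts were rounded and tested over all genes with edgeR 4.0.16 (TMM, filterByExpr with a minimum count of 10, 17446 genes kept, glmQLFit and glmQLFTest, 4 stage terms, 8 libraries, Benjamini-Hochberg). SE is the log2 fold change divided by the square root of F. The code was tested on simulated counts. Alternatives used DESeq2 1.42.0, limma 3.58.1, other filters and scalings, and 1 library left out.

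Members and lists were chosen with earlier results of these data known. Values in every library are given for the 3 members of highest mean TPM per cluster, the 2 largest called rises and falls per comparison and cluster, the C-type genes, and, per other list, the called genes with the largest rise and fall in hPFE against hESC. The result of 1 marker gene is not reported here.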

Additional observations from a re-analysis of the deposited data

How the results depend on the processing

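Each count of called members was recomputed under 19 alternatives, of which 8 left out 1 library; log2(TPM + 0.1) was added after the data had been seen. In hDE against hESC, 8 members were called; the count was 19 with only the 4 libraries compared, 5 with effective length offsets, 4 on log2(TPM + 1), 17 with voom weights per stage, and 0 to 11 with 1 library left out. In hAFE against hDE, 17 were called; it was 30 on log2(TPM + 0.1) and 4 to 22 with 1 library left out. In hPFE against hAFE, 0 were called; it was 2 without a count filter and 0 to 1 with 1 library left out. In hPFE against hESC, 13 were called; it was 8 with DESeq2 and 3 to 16 with 1 library left out. Leaving out a library leaves its stage with 1 sample, assumed to vary like the other stages, and fewer samples to estimate the spread; the cause of the other changes was not tested. Of 38 calls on single members none changed sign, 3 were kept in every alternative and 18 were lost in 5 or more. With the replicate number as a block the counts were 8, 19, 0 and 15; same-numbered libraries did not deviate together (correlations of -0.04 to 0.06), so the number was not taken to pair them. At this depth members near 3 counts in a library (0.170 to 0.267 CPM) cannot be ordered.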
